A study of Mus musculus with 6 samples.

Results

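The oxidative phosphorylation system of mitochondria is built from proteins of the nuclear and the mitochondrial genome, and the transcripts described here are those of its nuclear genes. The members were the protein-coding entries of the count table whose names mark them as subunits of complexes I to V (Nduf, Sdh, Uqcr, Cyc1, Cox4 to Cox8 and Atp5 names). This rule found 86 of the 54715 entries, with 37 in complex I, 4 in complex II, 9 in complex III, 18 in complex IV and 18 in complex V. The rule goes by name alone. It therefore also holds Atp5s, listed as Dmac2l in RefSeq and no longer named as a subunit of ATP synthase, and it leaves out subunits with other names such as Ndufab1, Cycs and Usmg5. 

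Complex I (NADH dehydrogenase) and complex II (succinate dehydrogenase) pass electrons to ubiquinone, complex III (the cytochrome bc1 complex) passes them on to cytochrome c, and complex IV (cytochrome c oxidase) hands them to oxygen. Complexes I, III and IV pump protons, and complex V (ATP synthase) uses the gradient to make ATP. Apart from complex II, each complex has a catalytic core and many small supernumerary subunits, some of which exist as tissue-specific isoforms, and pluripotent stem cells are known for relying strongly on glycolysis beside respiration.

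The study asked what the loss of Bdh2, a 3-hydroxybutyrate dehydrogenase, does in mouse advanced embryonic stem cells (ASCs), which are pluripotent cells grown in ABCL medium, so called after activin A, BMP4, the GSK3 inhibitor CHIR99021 and LIF. Libraries of 3 replicates of wild-type (WT) ASCs and 3 replicates of Bdh2-/- (KO) ASCs were compared by RNA-Seq. All 6 carry the same background, the labels giving a female 129/sv mouse mated with a GOF/GFP male (a fluorescent reporter driven by Oct4 control elements), and the knockout was made with CRISPR/Cas9 in WT ASCs and taken forward as a single-cell clone with a short frameshift deletion on both alleles. Nothing says whether the replicates were separate cultures, so p-values measure the spread between these samples, which may be technical, and with a single clone the knockout and the clone cannot be told apart.

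The libraries held 18927748 to 28333541 counts on genes, at which 3 counts correspond to 0.106 to 0.158 CPM (counts scaled to library size with TMM factors in all CPM values of genes below, and to library totals here). Bdh2 itself had 10.4, 9.55 and 8.26 CPM in WT ASCs and 5.95, 4.98 and 5.38 CPM in KO ASCs (log2 fold change -0.79 ± 0.12 SE, adjusted p = 2.46e-04, edgeR quasi-likelihood test with Benjamini-Hochberg adjustment over 16758 genes), so that its transcript was lower in every KO library but still present. This count covers the whole gene, of which the deletion removes a short stretch. The 10 pluripotency markers summed to 7004 to 7263 CPM in WT ASCs and 7328 to 7372 CPM in KO ASCs, and each was detected in all libraries. The 6 primitive endoderm markers summed to 13.6 to 14.4 CPM and 61.9 to 70.9 CPM. The 12 adult hepatocyte markers differed between libraries of 1 genotype, summing to 47.3 to 480.0 CPM in WT ASCs, highest in replicate 1, and to 28.1 to 141 CPM in KO ASCs, highest in replicate 2. Their most abundant transcript Alb (albumin) had 330.4, 197 and 22.0 CPM against 17.3, 88.2 and 8.67 CPM. The primitive endoderm and hepatocyte levels moved with genotype or library, and their part in the results below was not tested, beyond the counts of calls given without the highest libraries and with a hepatocyte covariate.

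Several transcription factors are known to act on nuclear respiratory genes, among them NRF1, GABP, YY1 and the estrogen-related receptors (ERR). Promoters in the RefSeq table for GRCm38.p6, which run from 250 bases before to 50 bases after the gene start, were found for 66 of the 85 member names, and were searched on both strands for short core motifs whose letters were chosen with the members' values known. The NRF1 core GCATGCGC was in the promoters of 10 members (15.2%, against 3.05% of 27025 genes). The GABP core CCGGAAG was in 16 (24.2% against 9.93%), the YY1 core AAGATGGCG in 7 (10.6% against 1.64%) and the ERR core AAGGTCA in 8 (12.1% against 5.38%). Longer letters gave 12.1% against 1.95% for GCGCATGCG and 3.03% against 0.466% for TCAAGGTCA. The 27025 genes are all those in the promoter table, expressed or not, and were not matched to the members in level or base content. The excess over them is therefore not shown to be particular to respiratory genes. The longer letters contain the core or its reverse, and a match is a description of the letters, not of binding. The windows below from members with a difference between genotypes are shown because the same core letters stood before members that were higher and before members that were lower in KO ASCs. Each is written 5′ to 3′ on the strand of its gene with 1 match in capitals. Of the members with the NRF1 core, 1 was called higher, 3 lower and 6 were not called, and the lower ones include Cox6a1, whose NRF1 match is not shown. The first set holds the NRF1 core, in Ndufa8 at chr2:36049314-36049376 (minus strand), in Ndufa6 at chr15:82354337-82354404 (minus strand) and in Sdhb at chr4:140961187-140961254 (plus strand).
Ndufa8: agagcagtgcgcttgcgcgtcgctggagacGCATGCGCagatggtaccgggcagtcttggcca
Ndufa6: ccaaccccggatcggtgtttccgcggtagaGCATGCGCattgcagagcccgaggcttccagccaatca
Sdhb: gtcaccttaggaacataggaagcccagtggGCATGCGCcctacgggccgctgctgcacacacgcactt
The GABP core, in either orientation, stood in Ndufs3 at chr2:90904712-90904778 (minus strand), in Sdhd at chr9:50603859-50603925 (minus strand) and in Cox6a1 at chr5:115348938-115349004 (minus strand). It also stood in Sdhb, past the gene start, so that of the members with this core 2 were called higher, 2 lower and 12 were not called.
Ndufs3: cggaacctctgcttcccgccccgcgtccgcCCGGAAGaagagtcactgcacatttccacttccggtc
Sdhd: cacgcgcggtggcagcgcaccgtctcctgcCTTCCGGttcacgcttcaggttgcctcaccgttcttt
Cox6a1: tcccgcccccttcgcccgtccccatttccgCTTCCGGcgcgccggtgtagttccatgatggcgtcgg
The Ndufs3 window holds a second match, in the opposite orientation near its end, that is left in lower case.
Of the members with the ERR core, 2 were called higher, 1 lower and 5 were not called. The 2 called higher were Atp5g3 and Sdhd, and the longer letters TCAAGGTCA stood in these 2 alone. The Sdhd match is not shown. The ERR core, in either orientation, stood in Atp5g3 at chr2:73911342-73911408 (minus strand) and in Ndufb4 at chr16:37654387-37654453 (minus strand).
Atp5g3: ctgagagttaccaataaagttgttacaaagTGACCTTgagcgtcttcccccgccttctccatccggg
Ndufb4: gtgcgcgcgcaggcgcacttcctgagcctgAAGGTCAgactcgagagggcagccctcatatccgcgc
As described below, Ndufa8, Ndufs3, Sdhd and Atp5g3 were higher in KO ASCs, and Ndufa6, Sdhb, Cox6a1 and Ndufb4 were lower. Of the members with a promoter in the table, 5 of the 7 called higher, 5 of the 18 called lower and 21 of the 39 not called held at least 1 of the 4 cores. These counts are a description with no test.

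Of the 86 members, 82 had enough counts to be tested. A difference at an adjusted p under 0.05 (a call) was found for 30 of the 82, made up of 7 increases and 23 decreases in KO ASCs. That is 36.6% called, with 8.54% higher and 28.0% lower, and over all 16758 tested genes 41.7% were called, with 21% higher and 20.8% lower. Respiratory chain genes were thus called somewhat less often than all tested genes, and more of their calls were decreases. Most members are abundant, and 73 have a mean of at least 50 TPM (counts divided by gene length, as defined below). Over all 3287 tested genes of that level 51.0% were called, with 35.6% higher and 15.4% lower. The members were called less often than these. The median log2 fold change of the 82 was -0.07, beside -0.01 over all tested genes, and 56 of the 82 were below 0. When library totals were used without TMM factors, which moved the median of all genes from -0.01 to -0.07, the split was 3 higher and 34 lower (8.11% of calls higher, beside 23.3%), and over all genes 2731 were higher and 4451 lower. In TMM-scaled CPM the genotypes did not overlap for 12 members that were higher and 22 that were lower (26.3% and 26.1% of all tested genes did so). The fold changes were small, and 5 of the 30 calls, all decreases, passed a test for a change beyond 1.2-fold, as did 14.7% of all tested genes (1185 higher and 1272 lower). The 5 were Ndufa6, Ndufa13, Cox7a1, Atp5s, which is no longer named as a subunit, and Cox6a2. Cox6a2, also among the 23 decreases, passed the filter on low counts through the WT libraries alone. Its call could only be a decrease and is no support for one. Leaving out the library with the highest Alb of each genotype (2 against 2 samples) gave 3 higher and 13 lower, of which 15 were among the 30, while 27.8% of all genes were called. A covariate for the summed hepatocyte markers gave 4 higher and 15 lower, of which 17 were among the 30, while 31.6% of all genes were called. The median log2 fold change of the members was -0.07 under both. Without WT replicate 2 the calls were 19, with 33.6% of all genes called, and without KO replicate 2 they were 16, with 32.5%. The increases numbered 4 without WT replicate 1, 2 without WT replicate 2, 11 without WT replicate 3, 3 without KO replicate 1 and 3 without KO replicate 2, and the decreases 13 without KO replicate 2 and 13 without KO replicate 3. Over all genes leaving out 1 library at a time gave 2928 to 3765 increases and 2624 to 3644 decreases, beside 3518 and 3478 with all libraries.

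**Figure D1:**
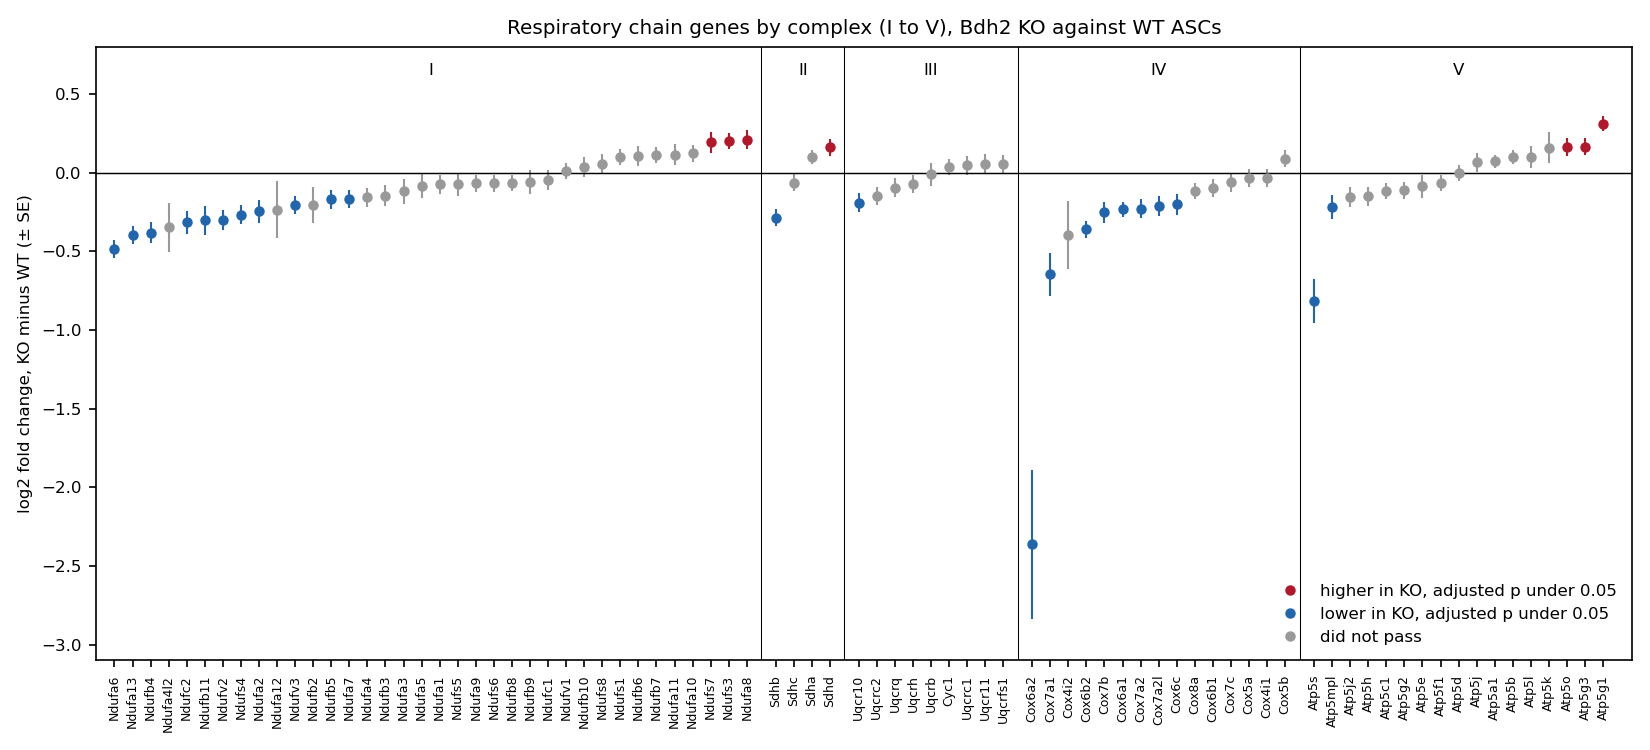
Log2 fold change (KO minus WT, TMM-scaled counts, edgeR) of 81 of the 82 tested genes, sorted within complexes I to V, with bars for ± SE (n = 3 and 3). Red and blue mark genes with adjusted p under 0.05. Most called genes lie within 0.5 of 0 in log2, and Cox6a2, Atp5s and Cox7a1 lie lowest.

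Complex I was represented by 37 genes, all of them tested. In KO ASCs 3 rose (8.11%) and 11 fell (29.7%), and the median log2 fold change was -0.07. The calls numbered 9 without WT replicate 2, 8 without KO replicate 2 and 9 without KO replicate 3. The clearest decreases were in small accessory subunits. Ndufa6, an accessory subunit of the LYR family at the matrix arm, had 75.6, 78.2 and 69.5 CPM in WT ASCs and 55.4, 51.3 and 52.9 CPM in KO ASCs (log2 fold change -0.48 ± 0.06 SE, adjusted p = 3.39e-05). Ndufa13, also known as Grim19, had 69.1, 68.7 and 69.9 CPM in WT ASCs and 55.8, 48.8 and 53.7 CPM in KO ASCs (-0.39 ± 0.06 SE, adjusted p = 1.48e-04). Ndufb4, a subunit of the membrane arm, had 75.2, 81.2 and 69.0 CPM in WT ASCs and 61.8, 56.1 and 55.1 CPM in KO ASCs (-0.38 ± 0.07 SE, adjusted p = 6.02e-04). For all 3 every KO library lay below every WT library, and Ndufa6 and Ndufa13 kept their calls in all 16 alternatives while Ndufb4 lost its call only in the test against a 1.2-fold change. Of the exon bases of Ndufa13, 30.0% are also exon of Tssk6 on the opposite strand, and the counting is not stated to use strand. Of the 50-base stretches of the longest Ndufb4 transcript, 37.0% also occur in 3 processed pseudogenes, so its counts are less certain.

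The other called decreases in complex I were in Ndufc2 (log2 fold change -0.32 ± 0.07 SE, adjusted p = 0.00345), a membrane arm subunit, and in Ndufb11 (-0.30 ± 0.09 SE, adjusted p = 0.0199), which is encoded on the X chromosome and which DESeq2 did not call. Among the WT libraries Ndufb11 ranged from 76.7 to 108 CPM, and among the KO libraries from 70.9 to 76.7 CPM, so the groups all but touched. Its call was lost in 7 of the 16 alternatives, among them without WT replicate 2, where the log2 fold change was -0.16, without KO replicate 2 or 3 and under both hepatocyte alternatives. Leaving out 1 library at a time gave log2 fold changes of -0.41 to -0.16. Ndufv2, a core subunit that holds an iron-sulfur cluster of the NADH module, had 142, 151 and 126 CPM in WT ASCs and 115, 111 and 115 CPM in KO ASCs (-0.30 ± 0.06 SE, adjusted p = 0.00228) and did not overlap between genotypes. Ndufs4, an accessory subunit whose loss is a known cause of Leigh syndrome, had 83.0, 82.4 and 73.1 CPM in WT ASCs and 68.8, 65.6 and 63.7 CPM in KO ASCs (-0.27 ± 0.06 SE, adjusted p = 0.00335), again without overlap. Ndufa2, Ndufa7, Ndufb5 and Ndufv3 were lower by smaller amounts, with log2 fold changes of -0.24, -0.17, -0.17 and -0.21 and adjusted p of 0.0175, 0.0278, 0.0394 and 0.0127. All 4 of these calls were lost without KO replicate 2 and again without KO replicate 3. Of the exon bases of Ndufa2, Ndufb5 and Ndufb11, 11.5%, 12.3% and 12.9% are also exon of genes on the opposite strand (Tmco6, Mrpl47 and Rbm10).

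The increases in complex I were in Ndufa8, Ndufs3 and Ndufs7. Ndufs3, a core subunit of the arm that leads electrons to ubiquinone, had 53.2, 50.6 and 52.4 CPM in WT ASCs and 60.1, 59.2 and 60.5 CPM in KO ASCs (log2 fold change 0.20 ± 0.05 SE, adjusted p = 0.00498), and each KO library was above each WT library. Ndufs7, the core subunit that carries the last iron-sulfur cluster before ubiquinone, had 65.6, 57.5 and 70.4 CPM in WT ASCs and 74.9, 75.2 and 71.7 CPM in KO ASCs (0.20 ± 0.07 SE, adjusted p = 0.0328). Ndufa8, an accessory subunit with paired cysteine motifs, had 41.0, 39.9 and 45.8 CPM in WT ASCs and 50.2, 49.2 and 47.5 CPM in KO ASCs (0.21 ± 0.06 SE, adjusted p = 0.0119). The genotypes did not overlap for any of the 3, and WT replicate 3 lay nearest to the KO libraries for Ndufa8 and Ndufs7. Ndufs3 lost its call in the test against a 1.2-fold change alone. Ndufs7 lost it also with library totals, without WT replicate 1 or 2 or KO replicate 1 or 2, and under both hepatocyte alternatives, and Ndufa8 without WT replicate 1 or 2 and under both hepatocyte alternatives. Of the 50-base stretches of the longest Ndufs3 transcript, 35.8% also occur in 2 processed pseudogenes.

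Among core subunits of complex I without a call, the log2 fold changes were 0.10 for Ndufs1, 0.05 for Ndufs8 and 0.01 for Ndufv1, and of these 3 only Ndufs1 did not overlap between genotypes. Those of Ndufs8 and Ndufv1 turned below 0 with library totals.

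Of the complex I names, Ndufa4 was the most abundant per length, with 458 ± 31.3 TPM in WT ASCs and 408 ± 8.02 TPM in KO ASCs (mean ± SD, n = 3). TPM values are counts divided by gene length and scaled to the same total in every library. Ndufa4 encodes a small subunit that is now placed in complex IV, and its log2 fold change was -0.16 ± 0.06 SE, adjusted p = 0.0517. Its paralog Ndufa4l2, known as a hypoxia-induced gene, had 20.9, 34.6 and 29.3 CPM in WT ASCs and 26.6, 17.9 and 22.3 CPM in KO ASCs, so the groups overlapped (-0.35 ± 0.16 SE, adjusted p = 0.0906). Leaving out 1 library at a time gave log2 fold changes of -0.52 to -0.18, and it was called lower in 6 of the 16 alternatives, among them library totals, without WT replicate 1 or KO replicate 1 and both hepatocyte alternatives. Ndufa4l2 made up 14.2% ± 2.92 of the TPM of the pair in WT ASCs and 12.7% ± 1.92 in KO ASCs. Ndufa12, an accessory subunit, had raw counts of 319, 326 and 750 in the WT libraries against 530, 505 and 376 in the KO libraries, so that WT replicate 3 stood high and no difference was called (-0.24 ± 0.18 SE, adjusted p = 0.320). Without WT replicate 3 its log2 fold change was 0.13, and 2 of the 16 alternatives called it.

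**Figure D2:**
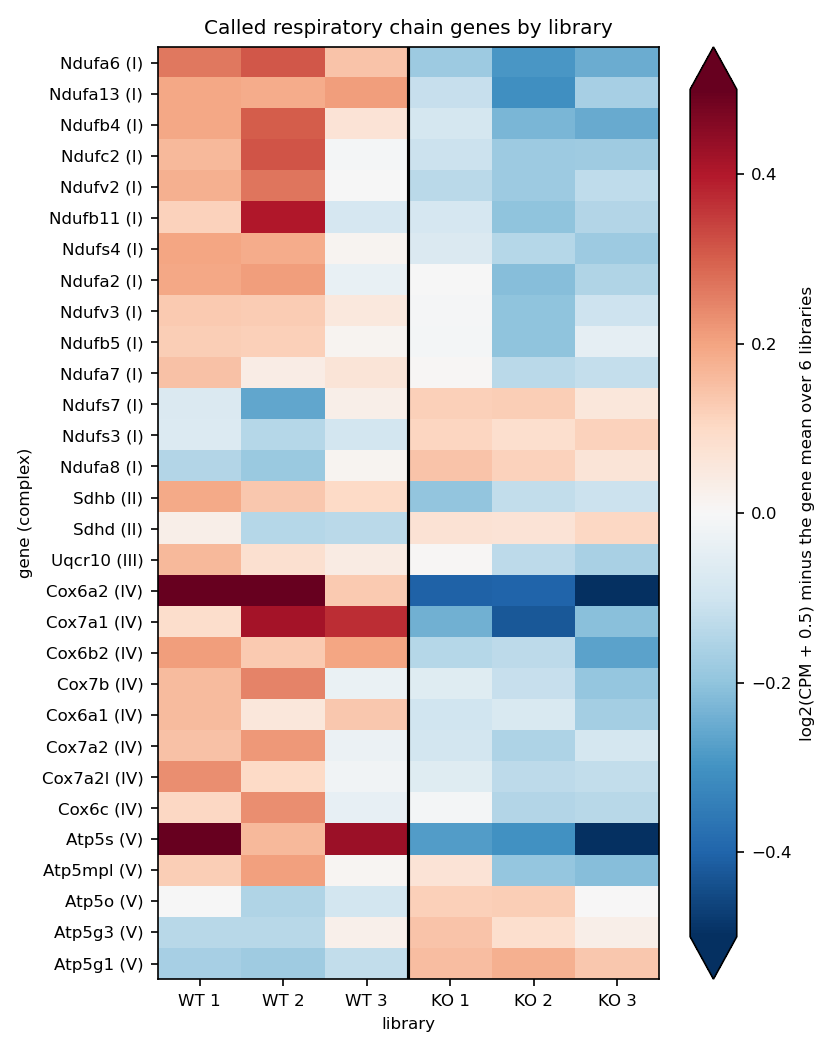
Colour gives log2(CPM + 0.5) minus the mean of the gene over the 6 libraries for the 30 called genes, with the complex in brackets and the libraries in columns (WT left, KO right of the line). Values beyond ± 0.5 take the end colours. WT 3 and KO 1 are paler than the other libraries of their genotype in many genes called lower.

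Complex II has 4 subunits, all of which also serve the citric acid cycle, and they did not move together. Sdhb, which carries the iron-sulfur clusters, had 104, 99.9 and 97.3 CPM in WT ASCs and 79.1, 83.4 and 84.3 CPM in KO ASCs (log2 fold change -0.29 ± 0.05 SE, adjusted p = 7.90e-04), and all KO libraries were below all WT libraries. Sdhd, one of the membrane anchors, had 141, 125 and 126 CPM in WT ASCs and 145, 144 and 148 CPM in KO ASCs (0.16 ± 0.06 SE, adjusted p = 0.0314), and all KO libraries were above all WT libraries. Sdhd was also the most abundant of the 4 per length, with 313 ± 21.4 TPM in WT ASCs and 347 ± 10.3 TPM in KO ASCs. Sdha, the flavoprotein that oxidizes succinate, had 288, 291 and 307 CPM in WT ASCs and 317, 311 and 323 CPM in KO ASCs without a call (0.10 ± 0.05 SE, adjusted p = 0.104), although its genotypes did not overlap. Sdhc, the other anchor, had 83.9, 91.9 and 90.0 CPM in WT ASCs and 84.0, 83.3 and 87.4 CPM in KO ASCs (-0.06 ± 0.05 SE, adjusted p = 0.368), and its groups overlapped. Sdhb lost its call only in the test against a 1.2-fold change. Sdhd lost it with library totals, in that test and without any 1 of WT replicate 2, WT replicate 3 or the 3 KO replicates.

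Complex III was represented by 9 genes, of which edgeR called 0 higher and 1 lower (11.1%), and the median log2 fold change was -0.01. At an unadjusted p under 0.05 there were 0 increases and 2 decreases, and DESeq2 also called 0 higher. The called gene was Uqcr10, a small subunit and the most abundant of the 9 per length, with 124, 117 and 114 CPM in WT ASCs and 112, 101 and 99.2 CPM in KO ASCs (-0.19 ± 0.06 SE, adjusted p = 0.0191) and no overlap. Its call was lost without WT replicate 1, KO replicate 2 or KO replicate 3, and no member of complex III was then called. The subunits that hold the redox centres had log2 fold changes of 0.04 for Cyc1 (cytochrome c1) and 0.06 for Uqcrfs1 (the Rieske protein), and the core protein Uqcrc1 had 0.05. These 3 values turned below 0 with library totals. Uqcrc2, the other core protein, had 192, 177 and 166 CPM in WT ASCs and 161, 156 and 165 CPM in KO ASCs (-0.15 ± 0.06 SE, adjusted p = 0.0558), and its genotypes did not overlap. Of the exon bases of Uqcrc2, 19.7% are also exon of Pdzd9 on the opposite strand.

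In complex IV the calls were all decreases. Of 18 genes 15 were tested, edgeR called 0 higher and 8 lower (53.3%; 0 and 9 at an unadjusted p under 0.05, and 0 and 8 with DESeq2), 14 of the 15 log2 fold changes were below 0 and their median was -0.21. The 8 include Cox6a2, which could only be called lower, as given below. Among the 11 tested members that are not tissue isoforms 5 were lower and 0 higher, with a median of -0.12. With library totals 10 members of the complex were lower and 0 were higher. The calls numbered 5 without KO replicate 2 and 5 without KO replicate 3, 4 without the highest-Alb libraries and 4 with the hepatocyte covariate. Cox5b, a subunit of the matrix side, was the exception in sign, with 126, 119 and 131 CPM in WT ASCs and 140.1, 133 and 127 CPM in KO ASCs and overlapping groups (0.09 ± 0.06 SE, adjusted p = 0.209). The members not tested were Cox7b2, with raw counts of 5, 6 and 8 in WT against 11, 10 and 2 in KO libraries, Cox8b, with 2, 7 and 0 against 5, 0 and 0, and Cox8c, with 4, 2 and 4 against 3, 5 and 7. Differences of these 3 were not detectable at this depth.

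The broadly used subunits of complex IV were abundant and had small fold changes. Cox8a had 1619.5 ± 36.0 TPM in WT ASCs and 1482 ± 63.0 TPM in KO ASCs (-0.12 ± 0.05 SE, adjusted p = 0.0936 for the log2 fold change), the highest mean per length of all members in WT ASCs, while in KO ASCs that of Atp5b was above it. Cox6a1 followed within the complex, had 355, 330.4 and 349 CPM in WT ASCs and 296, 302 and 282 CPM in KO ASCs and was lower without overlap (-0.23 ± 0.05 SE, adjusted p = 0.00215). Cox7b had 182, 194 and 159.8 CPM in WT ASCs and 157, 151 and 143 CPM in KO ASCs (-0.25 ± 0.07 SE, adjusted p = 0.00931) and Cox7a2 had 128, 135 and 114 CPM in WT ASCs and 109, 104 and 109 CPM in KO ASCs (-0.23 ± 0.06 SE, adjusted p = 0.0106), both without overlap between genotypes. Cox6c was lower with overlapping groups (-0.20 ± 0.07 SE, adjusted p = 0.0292). Cox7a2l, also called Scaf1 and known to bridge complexes III and IV in supercomplexes, had 145, 132 and 122 CPM in WT ASCs and 118, 113 and 113 CPM in KO ASCs (-0.21 ± 0.06 SE, adjusted p = 0.0149), and 17.7% of its 50-base stretches occur in 1 processed pseudogene. Cox7b, Cox7a2, Cox6c and Cox7a2l lost their calls with the hepatocyte covariate, whereas Cox6a1 kept it. Cox4i1 and Cox6b1 were not called, with log2 fold changes of -0.03 and -0.10.

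The tested tissue-restricted isoforms of complex IV had lower fold changes than the 11 other tested members of this complex. Cox7a1, Cox4i2 and Cox6b2 were at -0.64, -0.40 and -0.36 in log2, beside -0.25 to 0.09 for the 11 others. This grouping was added after the values were seen, and leaves out the untested Cox7b2, Cox8b and Cox8c. In other complexes Atp5s, Ndufa6, Ndufa13 and Ndufb4 also lay below Cox6b2. Cox6a2, the heart and skeletal muscle form of Cox6a1, had raw counts of 17, 15 and 11 in the WT libraries against 4, 4 and 2 in the KO libraries, with no overlap. It passed the filter on low counts through the WT libraries alone, so its call, which is among the 8, was bound to be a decrease and is no support for one. The sums were 43 and 10 counts, and their ratio per library total put the KO level at 18.4% of the WT level (exact 95% interval 8.25% to 37.2%, counting error only). Of its exon bases 10.3% are also exon of Itgad on the opposite strand. Its share of the TPM of Cox6a1 and Cox6a2 together was 0.204% ± 0.067 in WT ASCs and 0.0437% ± 0.0115 in KO ASCs. Cox7a1, likewise a heart and skeletal muscle form, had 5.86, 7.47 and 7.23 CPM in WT ASCs and 4.57, 3.96 and 4.67 CPM in KO ASCs (-0.64 ± 0.14 SE, adjusted p = 0.00220), and its share of the TPM of the Cox7a family was 4.93% ± 0.83 in WT and 3.71% ± 0.25 in KO libraries. Cox6b2, known as a testis form, had 82.4, 78.1 and 81.6 CPM in WT ASCs and 64.5, 65.0 and 59.0 CPM in KO ASCs (-0.36 ± 0.05 SE, adjusted p = 2.11e-04) with no overlap, and it made up 27.1% ± 0.86 of the Cox6b pair in WT ASCs and 23.7% ± 1.02 in KO ASCs. Cox4i2, a lung form induced at low oxygen, had 2.62, 1.88 and 2.33 CPM in WT ASCs and 1.81, 1.43 and 1.96 CPM in KO ASCs without a call (-0.40 ± 0.22 SE, adjusted p = 0.157), and was 1.11% ± 0.26 and 0.860% ± 0.154 of the Cox4i pair.

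Cox7a1 kept its call in every alternative, and Cox6b2 lost its call only in the test against a 1.2-fold change. Markers of striated muscle and male germ cells were summed beside these isoforms, and lung markers were not examined. The 8 striated muscle markers summed to 16.7 to 19.6 CPM in WT ASCs and 16.8 to 17.6 CPM in KO ASCs, and of the 6 tested 1 was higher (Myh6) and 2 were lower (Tnnt2 and Tnni3). The 6 male germ cell markers summed to 1.95 to 3.12 CPM and 1.42 to 1.89 CPM, with Prm2 at 0 in all libraries and only Ldhc above 10 counts. The 6 feeder fibroblast markers summed to 30.2 to 35.3 CPM and 23.1 to 28.1 CPM. In bulk samples fewer cells of a type and less RNA per cell cannot be told apart.

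**Figure D3:**
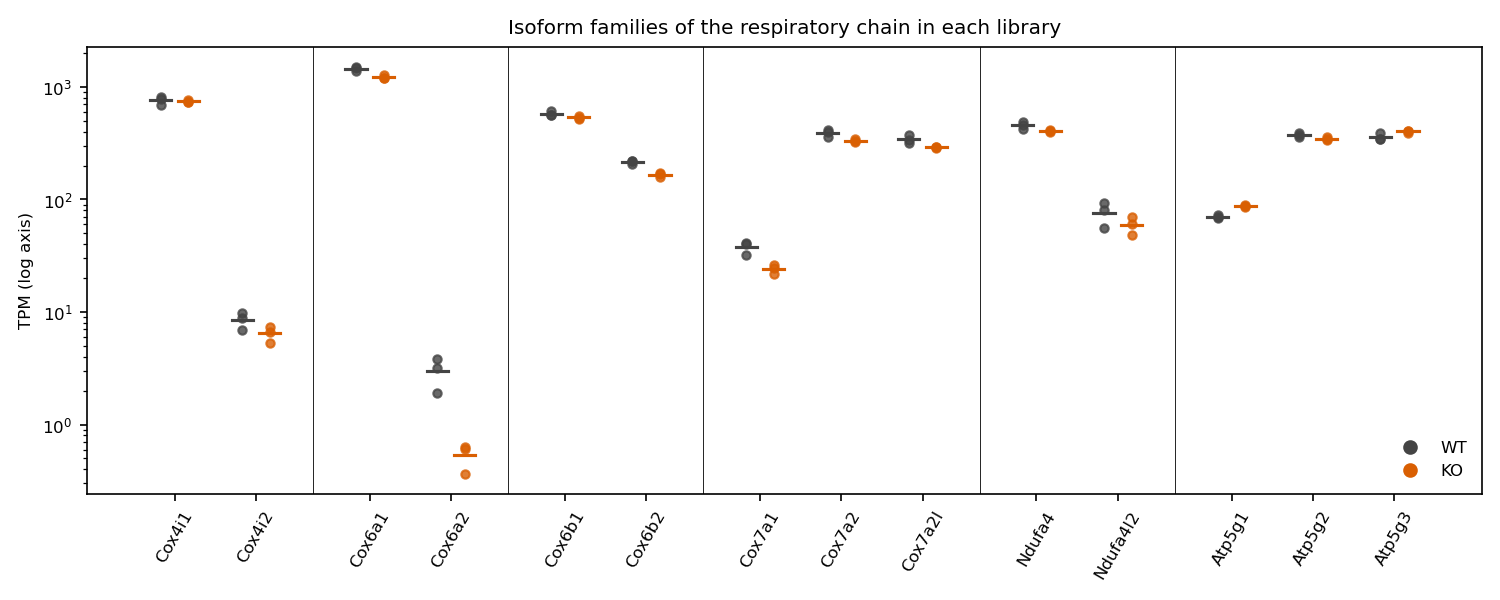
TPM on a log axis for 6 isoform families of the respiratory chain, with a point for each library and a line for the mean of 3 (WT grey, KO orange). Cox7a1 and Cox6b2, each less abundant than other forms of its family, sit lower in all KO libraries, and Atp5g1 sits higher. Cox6a2 also sits lower, but has only 43 counts over the WT and 10 over the KO libraries. It passed the filter on low counts through the WT libraries alone.

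Complex V had 3 increases (17.6%) and 2 decreases (11.8%) among 17 tested genes, and its median log2 fold change was -0.0034. With library totals there were 1 increase and 6 decreases. The calls moved with single libraries, to 3 without WT replicate 1, 2 without WT replicate 2, 9 without WT replicate 3, 3 without KO replicate 1 and 2 without KO replicate 2. The beta subunit Atp5b, which holds the catalytic sites, was the most abundant member of the complex, with 1416 ± 73.2 TPM in WT ASCs and 1504 ± 19.1 TPM in KO ASCs (log2 fold change 0.10 ± 0.04 SE, adjusted p = 0.0891), and Atp5a1, its partner in the catalytic head, had 1240.4 ± 29.9 TPM in WT ASCs and 1296 ± 43.3 TPM in KO ASCs (0.07 ± 0.04 SE, adjusted p = 0.170). For both the KO libraries were all above the WT libraries in CPM, though neither was called.

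The clearest increase of all members was in Atp5g1, 1 of the 3 genes that encode the same mature c subunit of the rotor ring. Atp5g1 had 116, 115 and 120.0 CPM in WT ASCs and 146, 148 and 143 CPM in KO ASCs (0.31 ± 0.05 SE, adjusted p = 2.06e-04), and lost its call only in the test against a 1.2-fold change. Atp5g3 had 256, 256 and 287 CPM in WT ASCs and 311, 299 and 287 CPM in KO ASCs (0.17 ± 0.06 SE, adjusted p = 0.0295), with WT replicate 3 close to KO replicate 3, and its call was lost in 8 of the 16 alternatives, among them library totals, without WT replicate 1 or 2 or KO replicate 1 or 2 and both hepatocyte alternatives. Atp5g2 had 220.3, 206 and 211 CPM in WT ASCs and 207, 194 and 189 CPM in KO ASCs without a call (-0.11 ± 0.05 SE, adjusted p = 0.102). Of the TPM of the 3 genes, Atp5g1 thus made up 8.75% ± 0.13 in WT ASCs and 10.4% ± 0.37 in KO ASCs, Atp5g3 44.7% ± 1.82 and 48.2% ± 0.16, and Atp5g2 46.5% ± 1.80 and 41.3% ± 0.46. In WT ASCs Atp5g2 was the leading gene on average, and in KO ASCs Atp5g3 was. These shares are given with no test, since they are fractions of each other, and 11.6% of the 50-base stretches of Atp5g1 and 11.1% of those of Atp5g2 occur in transcripts of other genes.

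Atp5o, the oligomycin sensitivity protein of the stalk, had 148, 133 and 139 CPM in WT ASCs and 161, 161 and 148 CPM in KO ASCs (0.16 ± 0.06 SE, adjusted p = 0.0315) and no overlap between genotypes. Its call was lost in 6 alternatives, among them library totals and without WT replicate 2 or KO replicate 1 or 2. It shares 47.9% of its exon bases with other annotated genes, among them a second entry of the same name (ENSMUSG00000116933) that was at 0 counts in all 6 libraries and was not tested. Atp5mpl, a small subunit of the membrane part, was lower (-0.22 ± 0.08 SE, adjusted p = 0.0333) with overlapping groups, and its call was lost in 7 alternatives, among them without WT replicate 1 or 2 or KO replicate 2 or 3. Atp5s had 8.85, 6.73 and 8.18 CPM in WT ASCs and 4.82, 4.73 and 3.92 CPM in KO ASCs (-0.82 ± 0.14 SE, adjusted p = 4.56e-04), without overlap and with its call kept in all 16 alternatives. Atp5o, Atp5j and Ndufb4 lie on chromosome 16, where 44.7% of 494 tested genes rose and 8.91% fell (median log2 fold change 0.19). Atp5o and Atp5j were at 0.16 and 0.07, and Ndufb4 at -0.38.

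The complexes were also summed within each library. The summed TPM of all members was 22256 ± 37.2 in WT ASCs and 21094 ± 282 in KO ASCs (mean ± SD, n = 3), a log2 ratio of -0.08. In TMM-scaled CPM, in which long genes weigh more, the sums were 12888 ± 87.9 and 12707 ± 262, a log2 ratio of -0.02, and KO replicate 1 was above all WT libraries. In TPM, complex IV went from 7070 ± 31.1 to 6344 ± 108 TPM, a log2 ratio of -0.16, and complex I from 5777 ± 86.4 to 5336 ± 87.3 TPM, a log2 ratio of -0.11. In both every KO library was below every WT library. Complex III went from 2831 ± 12.2 to 2723 ± 71.9 TPM, with a log2 ratio of -0.06, and again without overlap. For complex II the sums were 737 ± 19.7 and 757 ± 24.9 TPM, and for complex V 5841 ± 79.4 and 5934 ± 44.7 TPM, both with overlapping genotypes. These sums were not tested. In TMM-scaled CPM the log2 ratios were -0.09 for complex I, 0.04 for complex II, -0.03 for complex III, -0.13 for complex IV and 0.05 for complex V. On that scale complex III overlapped between genotypes, and complexes II and V were higher in all KO libraries.

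**Figure D4:**
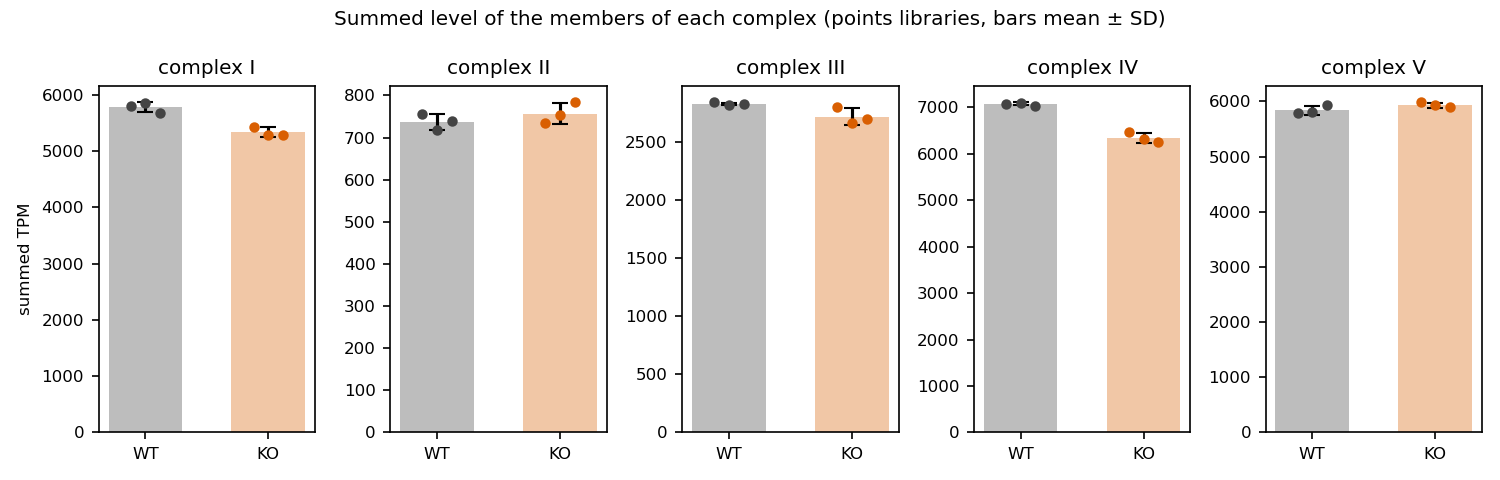
Summed TPM of the genes of each complex, with a point for each library and bars for the mean ± SD (n = 3). Complexes I, III and IV are lower in all KO libraries, by the most in complex IV (6344 ± 108 against 7070 ± 31.1 TPM), whereas complexes II and V overlap. In summed CPM complex III overlaps, and complexes II and V are higher in all KO libraries.

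The level of the members as a group differed between libraries of 1 genotype. The median deviation of the 82 genes from their own means, in log2(CPM + 0.5), was 0.07, 0.05 and 0.01 in WT replicates 1 to 3 and 0.01, -0.08 and -0.09 in KO replicates 1 to 3. WT replicate 3 and KO replicate 1 thus lay at the same level. Over 475 other genes with a mean of at least 50 TPM and a length under 1200 bases the medians were 0.07, 0.02 and -0.0031 in WT ASCs and 0.03, -0.04 and -0.06 in KO ASCs. Over all tested genes they lay between -0.0037 and 0.0063. The fold changes of the members rose with gene length (Spearman's rho 0.27 across 82 genes, which are not independent replicates), and did so among all 3287 tested genes of at least 50 TPM (rho 0.24). Of the 29 tested members under 1200 bases 1 was higher and 10 were lower, and of the 53 longer ones 6 were higher and 13 were lower. Of the 475 other short abundant genes 13.1% rose and 23.2% fell (median -0.06), beside 40.2% and 13.8% (median 0.09) for 2739 longer ones. The part of length in the members' differences was not tested.

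**Figure D5:**
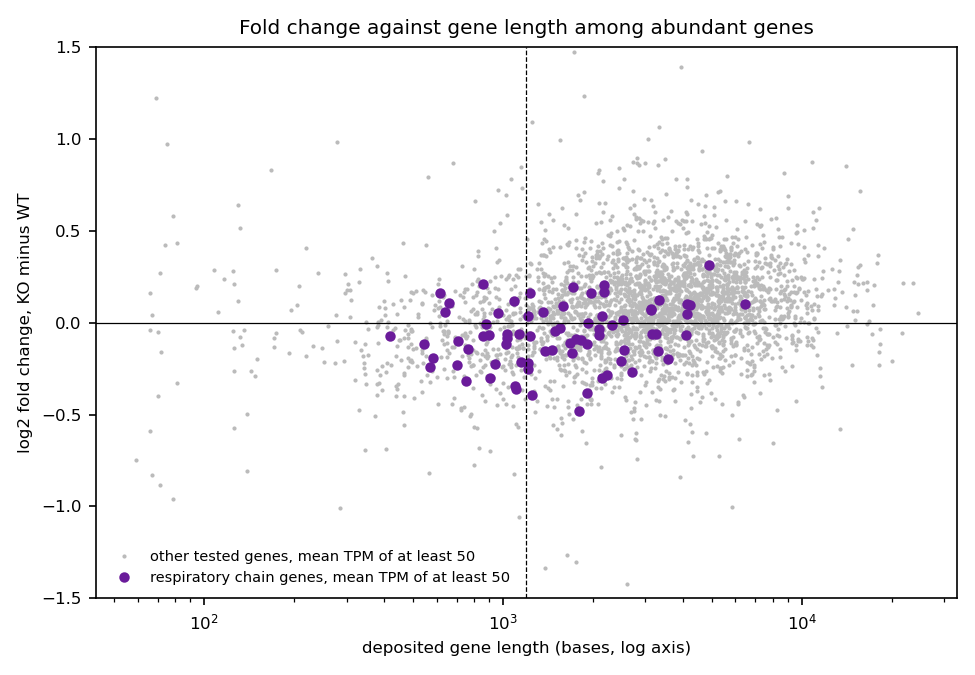
Log2 fold change (KO minus WT) against the deposited gene length, on a log axis, for tested genes with a mean of at least 50 TPM, with 73 respiratory chain genes in purple and 3214 others in grey. The dashed line marks 1200 bases, and 3 genes lie beyond the vertical axis. Short genes lie lower than long ones in both groups.

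Genes that serve the same complexes but carry other names were compared from lists written for this purpose. Of the 48 tested assembly factors of complexes I to V, edgeR called 5 higher and 11 lower (3 and 15 with library totals), and the median log2 fold change was -0.07. The largest difference was in Cox17, the copper chaperone of cytochrome c oxidase, which had 6.48, 7.62 and 7.47 CPM in WT ASCs and 2.43, 2.67 and 2.71 CPM in KO ASCs (-1.47 ± 0.14 SE, adjusted p = 4.92e-06). Cox14, which takes part in Cox1 synthesis, had 39.9, 46.2 and 41.2 CPM in WT ASCs and 32.0, 30.4 and 29.2 CPM in KO ASCs (-0.47 ± 0.07 SE, adjusted p = 1.02e-04). Neither overlapped between genotypes. For complex IV the factors had 2 increases (Cox10, 0.20, and Coa7, 0.20, both lost with library totals) and 5 decreases among 20 tested, and 4 calls without KO replicate 2. For complex I they had 1 increase (Tmem186, 0.23) and 3 decreases among 15, led by Nubpl (-0.48 ± 0.08 SE, adjusted p = 2.81e-04), which delivers iron-sulfur clusters, and Foxred1 (-0.28 ± 0.06 SE, adjusted p = 0.00270). For complex II they had 1 increase (Sdhaf2, 0.27, which attaches flavin to Sdha) and 2 decreases (Sdhaf3, -0.44, which matures Sdhb, and Sdhaf4, -0.34) among 4. For complex III they had 1 increase (Uqcc3, 0.39) and 1 decrease (Uqcc2, -0.26) among 6, and for complex V 0 calls among 3 (edgeR and DESeq2; 2 increases at an unadjusted p under 0.05), whose log2 fold changes lay between -0.03 and 0.21.

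Of 6 subunits and carriers outside the name rule edgeR called 0 higher and 3 lower (0 and 4 at an unadjusted p under 0.05 and with DESeq2), namely Cycs (cytochrome c, -0.20 ± 0.06 SE, adjusted p = 0.0224), Atpif1, the inhibitor of ATP synthase (-0.19 ± 0.06 SE, adjusted p = 0.0219), and Higd2a (-0.19). The calls in this list numbered 1 without WT replicate 1, WT replicate 2 or KO replicate 1, and 0 without KO replicate 2 or KO replicate 3. Of the 13 mitochondrially encoded subunits 1 was higher (mt-Cytb, 0.29 ± 0.09 SE, adjusted p = 0.0185) and 1 was lower (mt-Co1, -0.23 ± 0.09 SE, adjusted p = 0.0460), both with overlapping groups and neither called by DESeq2. Their calls numbered 1 without WT replicate 1, 5 without WT replicate 2, and 0 without KO replicate 1 or KO replicate 2. Their summed level was 22156 ± 3587 CPM in WT ASCs and 21966 ± 2028 CPM in KO ASCs, so its spread within a genotype was larger than the difference. Coenzyme Q genes had 2 increases (Coq4, 0.35, and Coq7, 0.31) and 4 decreases among 13, led by Coq2, which joins the ring to its tail (-0.55 ± 0.06 SE, adjusted p = 2.32e-05), and Coq10a (-0.55 ± 0.12 SE, adjusted p = 0.00210).

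Of 16 tested regulators of respiratory gene transcription edgeR called 7 higher (43.8%) and 0 lower, and their median log2 fold change was 0.11. The counts were 7 and 0 with DESeq2 and at an unadjusted p under 0.05, and 6 and 0 with library totals. Over all tested genes 21% rose and 20.8% fell, and over those with a mean of at least 50 TPM 35.6% rose and 15.4% fell. Myc had 35.6, 32.3 and 40.9 CPM in WT ASCs and 62.1, 71.3 and 66.4 CPM in KO ASCs (0.87 ± 0.08 SE, adjusted p = 3.12e-06), and Hcfc1, a cofactor that also serves cell cycle genes, had 439, 417 and 469.6 CPM in WT ASCs and 599.6, 675 and 615 CPM in KO ASCs (0.51 ± 0.06 SE, adjusted p = 2.17e-05). Pprc1, Yy1, Gabpb2, Esrrb and Gabpa were higher by 0.35, 0.32, 0.27, 0.22 and 0.17 in log2. Esrrb is also in the list of pluripotency markers. Nrf1 had 80.6, 71.1 and 72.0 CPM in WT ASCs and 72.8, 73.6 and 77.8 CPM in KO ASCs (0.0033 ± 0.06 SE, adjusted p = 0.971). Genes of the mitochondrial ribosome had 21 increases and 18 decreases among 77 tested and a median log2 fold change of 0.04 (13 and 23 with a median of -0.02 with library totals). Genes of the cytosolic ribosome, which are also short and abundant, had 2 increases and 33 decreases among 87 and a median of -0.12, and the 2 increases were Rpl10l (0.70) and Rps19bp1 (0.24), of which the second binds a ribosomal protein and is not one. The calls among cytosolic ribosomal genes numbered 23 without KO replicate 2 and again without KO replicate 3.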

How the data were processed

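RNA of WT and Bdh2-/- ASCs (3 samples each) was made into libraries with a TruSeq RNA kit. The authors aligned the reads with HISAT2 2.0.5 to GRCm38, counted them per gene with FeatureCounts and deposited raw counts, and used DESeq2 for their own comparison, whose fold changes and p-values were not read. The annotation release, strand setting and treatment of multimapping reads are not given in the sources used here. The depth was 18927748 to 28333541 counts per library, and intervals cover counting error only.

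From the deposited counts, genes passing filterByExpr (16758) were tested in edgeR 4.0.16 (R 4.3.3) with TMM factors, a quasi-likelihood fit and Benjamini-Hochberg adjustment (threshold 0.05). TPM was computed here from the deposited gene lengths. DESeq2 1.42.0 and limma 3.58.1 served as alternatives, and figures were drawn with matplotlib 3.10.9. The WT against KO test of each of the 3 tools was tested on simulated data, and the other procedures were not. In these data edgeR called 24 of 100 genes set to differ by 0.3 in log2, and 72 of 100 set to differ by 1. Of its 106 calls, 10 (9.43%) were of genes set not to differ, at the threshold of 0.05. A gene that was not called may thus still differ by a small amount.

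Named genes were, per complex, the most abundant and the 3 largest called increases and decreases, all isoform families, complex II, untested members, members with unstable calls, and the 2 largest called increases and decreases of each related list. Other names, the isoform grouping and the motif letters were chosen after values were seen. The members and lists themselves were chosen with earlier results of these data known. Shared sequence was measured on GENCODE M21, which held 86 of 86 identifiers. An item among the members is not reported by name.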

Additional observations from a re-analysis of the deposited data

How the results depend on the processing

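Of the 30 calls among respiratory chain genes, those of Ndufa6, Ndufa13, Cox7a1 and Atp5s were kept in all 16 alternatives and that of Cox6a2, which passed the filter through the WT libraries alone, in the 15 that tested it, and no called gene reversed. The test against a 1.2-fold change left 5 calls (0 higher, 5 lower), with 2, 0, 0, 2 and 1 in complexes I to V, and 11 of 108 in the related lists. Leaving out the highest-Alb library of each genotype gave 16 (3 and 13), with 8 in complex I, 0 in III, 4 in IV and 2 in V, and 55 in the related lists, while 27.8% of all genes were called. The hepatocyte covariate gave 19 (4 and 15), with 0 in complex III, 4 in IV and 3 in V. Library totals gave 37 calls (3 higher and 34 lower), of which 1 was in complex II and 3 were in complex III, where DESeq2 and a mean count of at least 50 each gave 2. Leaving out 1 library at a time gave 16 to 40 calls, 2 to 11 higher and 13 to 29 lower, fewest without KO replicate 2 and most without WT replicate 3 (32.5% to 43.0% of all genes called), with 8 to 18, 1 to 2, 0 to 3, 5 to 8 and 2 to 9 in complexes I to V, and 74 to 131 in the related lists. Bdh2 stayed between -0.88 and -0.71. As medians over members the log2 ratios of level were -0.070 for complex I, -0.047 for II (0.038 as a sum) and -0.095 for IV, and as summed CPM 0.054 for complex V. Signs turned only in genes that were not called, in 16 of 52 under some alternative, and 19 of the 52 were called under some alternative. Ndufa12 turned to 0.13 without WT replicate 3. The log2 fold change of Ndufs8 was -0.0050 with library totals. The log2 fold change of Ndufv1 was -0.045 with library totals, -0.016 without the highest-Alb libraries and -0.0065 with the covariate (-0.0080 to 0.048 leaving out 1 library). The log2 fold change of Cyc1 was -0.021 with library totals and -0.0025 without the highest-Alb libraries. In the same order the log2 fold change of Uqcrc1 was -0.0096 and -0.017, and -0.021 with the covariate (-0.0016 to 0.12 leaving out 1 library). The log2 fold change of Uqcrfs1 was -0.0010 with library totals and -0.013 with the covariate, and the log2 fold change of Cox4i1 ran from -0.096 to 0.016 leaving out 1 library. The causes were not tested. The replicate numbers of WT and KO samples did not pair them (correlations of same-numbered samples -0.154, 0.0995 and 0.245), and with a replicate block the calls were 29 (7 higher, 22 lower) and 38.5% of all genes were called.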
